A study of Drosophila melanogaster with 2 samples.

Results

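Large-subunit cytosolic ribosomal protein genes of Drosophila melanogaster were examined for chromatin peaks of dmrt93B at their promoters. The genes were all 54 protein-coding genes whose symbol begins with RpL in the Ensembl annotation of the dm6 build, among 13945 protein-coding genes on the main chromosome arms. The rule uses gene symbols alone, but it was set with earlier results of these data known. Chromatin immunoprecipitation followed by sequencing (ChIP-seq) had been made, per the labels, from whole wandering larvae of the third instar, males and females pooled, of unknown age in days. The larvae came from a stable transgenic line that expresses dmrt93B with GFP at its C-terminal end; dmrt93B is a DM-domain DNA-binding protein of the family of Doublesex. The labels do not say which promoter drives the transgene. All libraries form 1 group, dmrt93B-GFP, of 2 biological replicates, and no untagged or wild-type larvae were analysed here. The sample descriptions call both libraries input controls, against their antibody label, their title and a separately named control. They are treated here as libraries labelled dmrt93B ChIP, and every value below rests on that label.

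The large ribosomal subunit joins amino acids into protein. Its proteins surround the peptidyl transferase site, line the tunnel through which the new chain leaves, and form the stalks that recruit translation factors and move tRNAs. Fly ribosomal protein genes are transcribed at high rates in growing larvae. Their start sites are known for a polypyrimidine initiator, the TCT element, in place of the usual initiator, and their promoters often carry sites for the DNA-binding proteins Dref and M1BP. Mutation of 1 gene copy of many of them gives the Minute phenotype of slow growth and short bristles.

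The authors deposited 30000 relaxed peaks for each replicate and an optimal list of 4159 pooled peaks past a reproducibility threshold. A promoter summit is a peak summit within 500 bp of a transcription start site (TSS) of the gene. To give a value per replicate, the strongest peaks of each replicate list were used, as many as the optimal list holds. Signal is the authors' own peak strength, a score without stated scale, and serves here only to rank and describe peaks within 1 list. Read depth is unknown, so the 95% Wilson intervals cover counting error over genes only, and no p-value was computed, since genes are not replicates of a condition. In whole larvae a weak peak in many cells and a strong peak in few cells cannot be told apart.

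Most RpL genes had a dmrt93B peak at the promoter. In the optimal list 43 of the 54 had a promoter summit (79.6%, interval 67.1 to 88.2), against 1821 of the 13945 protein-coding genes (13.1%). Among the strongest peaks of replicate 1 the count was 30 of 54 (55.6%), against 10.1% of all genes, and among the strongest of replicate 2 it was 46 of 54 (85.2%), against 17.1% of all genes. The optimal summit itself was found, within 200 bp, among the strongest peaks of both replicates at 29 RpL genes (53.7%, interval 40.6 to 66.3), against 8.40% of all genes. In the full lists, which hold weak peaks as well, 31 RpL genes had a summit in replicate 1, against 24.3% of all genes, and 49 had one in replicate 2, against 46.4% of all genes. The RpL share lay above the share of all genes in each of these lists, and replicate 2 gave the higher RpL count throughout.

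The cytosolic small-subunit genes came closest to this share. Promoter summits were present at 43 of 54 RpL genes (79.6%, interval 67.1 to 88.2) and at 24 of 38 RpS genes (63.2%, interval 47.3 to 76.6) in the optimal list. The difference of 16.5 percentage points was not tested, and the intervals overlap. It was 8.87 points in replicate 2 alone, 16.1 points in replicate 1 alone and 6.34 points with only those optimal peaks that were entered in both replicate lists. In replicate 1 the counts were 30 RpL and 15 RpS genes, and in replicate 2 they were 46 RpL and 29 RpS genes. The median signal was 412 for RpL and 438 for RpS genes, and the median summit offset was -44 bp for RpL and -32 bp for RpS genes. The strongest RpS promoter summits, at RpS27, RpS28b and RpS25, had signals of 1639, 881 and 784.

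Other lists of the translation machinery lay lower than the RpL genes. The optimal list had summits at 8 of 47 mitochondrial large-subunit genes (17.0%, interval 8.89 to 30.1), led by mRpL41, mRpL23 and mRpL24, and at 9 of 26 mitochondrial small-subunit genes (34.6%, interval 19.4 to 53.8), led by mRpS10, mRpS23 and mRpS2. Cytosolic translation initiation and elongation factors had them at 10 of 52 genes (19.2%, interval 10.8 to 31.9), among which eIF4EHP, eIF6 and eEF1gamma were strongest. Of 22 ribosome biogenesis genes 3 had one (13.6%), namely Nnp-1, bys and hoip. Of 6 genes that encode factors known at ribosomal protein promoters 2 had one, M1BP and Dref. These lists, like the RpL genes, had more members with a summit in replicate 2 than in replicate 1, apart from the list of 6 factors with 2 in each, as the plot of shares by gene list shows.

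**Figure D1:**
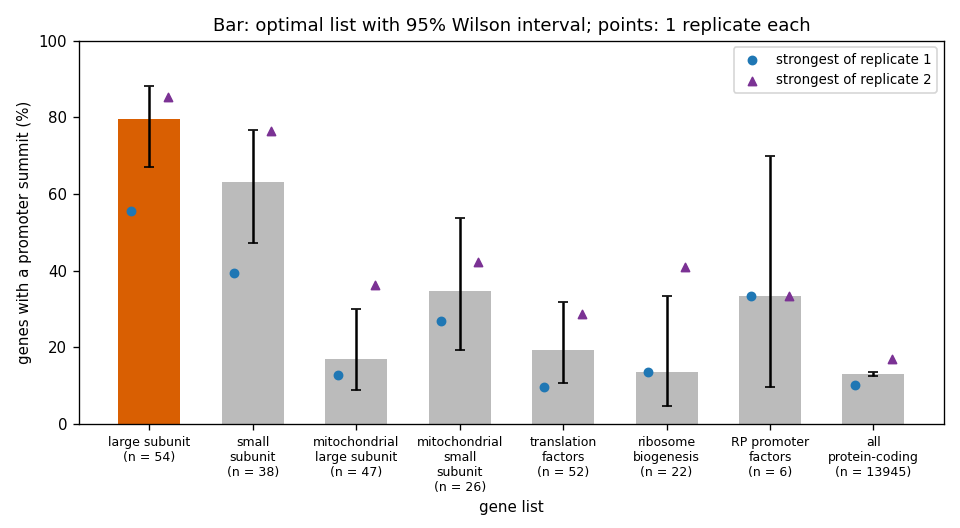
Share of genes with a promoter summit, in percent, for the 54 RpL genes, the 6 other gene lists and all protein-coding genes. Bars give the optimal list with its 95% Wilson interval over genes, circles the strongest peaks of replicate 1 and triangles those of replicate 2. The RpL bar stands at 79.6%, the RpS bar at 63.2% and the bar of all genes at 13.1%.

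The promoters of RpL32, RpL23A, RpL28 and RpL14 are printed because they carry 4 of the 7 strongest RpL summits; RpL7 and RpL34b are shown with their paralogues. Each runs 5′ to 3′ on the gene's own strand, from 100 bases before to 30 after a TSS, as read from the Release 6 genome sequence (dm6). Capitals mark CTTT, the core of the TCT element, where it starts within 5 bp of the TSS, and TATCGATA, the DRE, which is the site of Dref.
RpL32 (chr3R:30046131-30046261, minus strand, summit 77 bp upstream of the TSS): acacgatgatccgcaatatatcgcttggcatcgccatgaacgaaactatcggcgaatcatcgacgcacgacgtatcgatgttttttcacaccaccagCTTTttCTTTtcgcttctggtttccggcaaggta
RpL23A (chr3L:1668624-1668754, minus strand, summit 90 bp upstream): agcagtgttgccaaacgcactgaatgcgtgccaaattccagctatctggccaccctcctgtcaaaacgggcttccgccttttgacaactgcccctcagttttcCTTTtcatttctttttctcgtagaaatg
RpL28 (chr3L:3222930-3223060, minus strand, summit 54 bp upstream): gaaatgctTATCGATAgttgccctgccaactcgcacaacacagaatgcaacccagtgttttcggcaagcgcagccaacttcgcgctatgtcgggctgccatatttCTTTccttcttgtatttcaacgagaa
RpL14 (chr3L:8600906-8601036, plus strand, summit 42 bp upstream): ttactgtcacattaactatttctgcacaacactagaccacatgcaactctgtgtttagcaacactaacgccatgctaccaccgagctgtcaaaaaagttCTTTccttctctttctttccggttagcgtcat
All 4 hold CTTT at the printed TSS, and RpL28 alone among them holds a DRE in the printed stretch.

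The 43 RpL promoter summits spanned much of the optimal list. Their signals had a median of 412, with the lowest at 131 and the highest at 1355, against a median of 286 over the 1821 genes with a promoter summit and 217 over all optimal peaks. Of the 43, 25 (58.1%) ranked among the 1039 strongest peaks of the list, against 719 of the 1821 genes (39.5%). The median percentile of signal was 79.3 for RpL genes and 64.5 for all genes with a promoter summit.

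**Figure D2:**
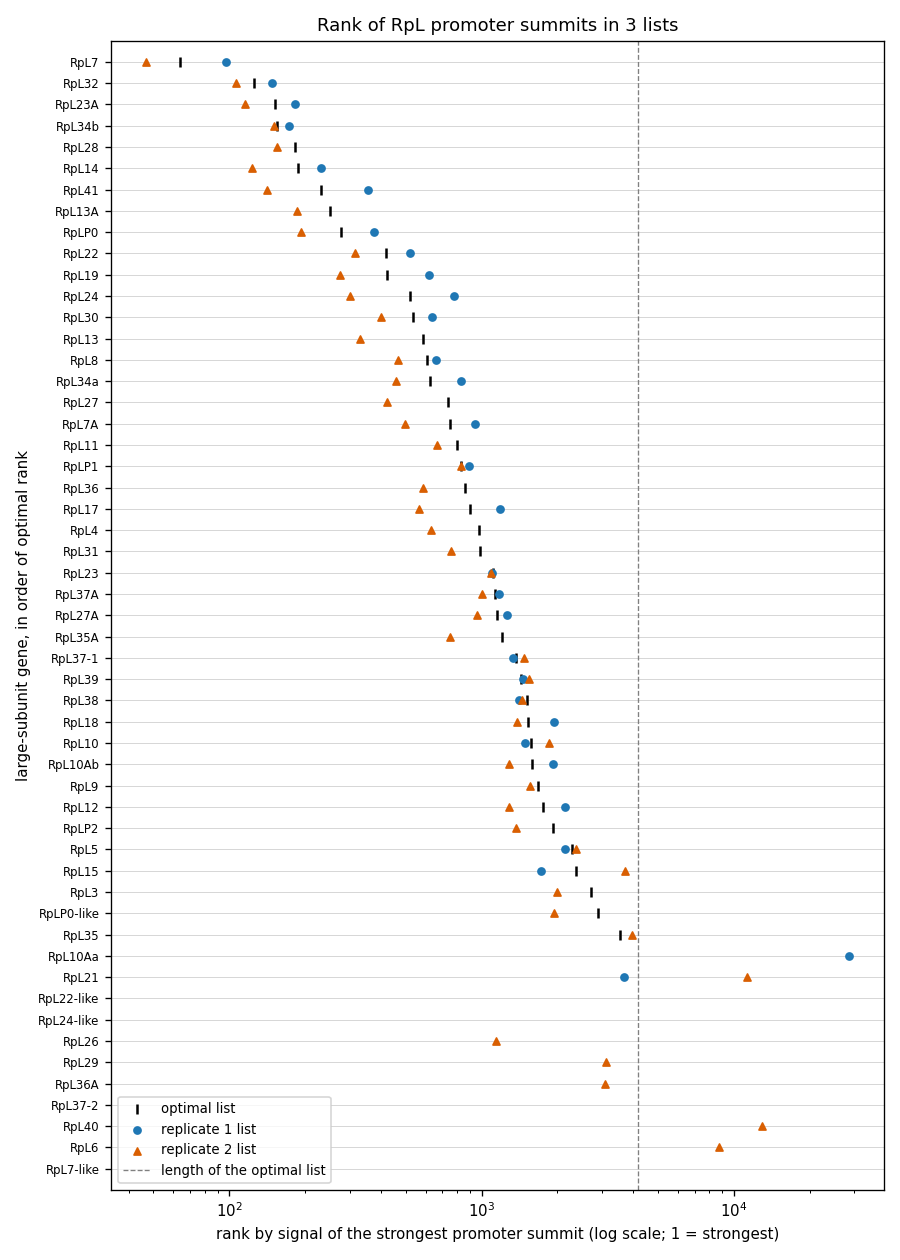
Rank of the strongest promoter summit of each of 53 RpL genes (1 is strongest, log scale) in the optimal list (bars), the full replicate 1 list (circles) and the full replicate 2 list (triangles). Genes run from the strongest to the weakest optimal summit, with those lacking one at the bottom, and the dashed line marks rank 4159. Circles are missing for 14 of the 42 genes shown with an optimal summit, and triangles are present for all 42.

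All 4 genes of the P stalk, which recruits and activates the GTPase translation factors, had a promoter summit, against 79.6% of RpL genes. RpLP0, the stalk base, was strongest, with rank 374 and signal 358 in replicate 1, rank 193 and signal 375 in replicate 2 and rank 277 in the optimal list. RpLP1, an acidic stalk protein, ranked 891 in replicate 1, 833 in replicate 2 and 831 in the optimal list. RpL12, which sits at the stalk base beside RpLP0, ranked 2149 in replicate 1, 1283 in replicate 2 and 1745 in the optimal list. RpLP2, the partner of RpLP1, had no entry within 500 bp in replicate 1 and ranked 1372 in replicate 2 and 1911 in the optimal list. Its optimal summit also lay farther out than those of the other stalk genes, at -200 bp. Replicate 2 had a weaker RpLP2 summit as well, at rank 1919 and 12 bp upstream of the TSS. Thus the stalk genes were spread from near the top of the list to its middle.

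RpL5 and RpL11, whose proteins bind the 5S rRNA and which are known in mammals to hold the ubiquitin ligase Mdm2 when ribosome assembly fails, both had a summit. RpL11 ranked 802 in the optimal list and 669 in replicate 2 and had no replicate 1 entry within 500 bp. RpL5 was present in both replicates, at ranks 2142 and 2363, and ranked 2279 in the optimal list, with the summit 6 bp upstream of the TSS.

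Of 8 genes whose proteins lie around the exit tunnel, 7 had a promoter summit, against 79.6% of RpL genes. RpL23A, which contributes to the docking site of the signal recognition particle at the tunnel mouth, was strongest with rank 182 and signal 496 in replicate 1, rank 116 and signal 448 in replicate 2 and rank 152 in the optimal list. RpL19 ranked 619 in replicate 1, 275 in replicate 2 and 422 in the optimal list. RpL17 ranked 1185 in replicate 1 and 563 in replicate 2, and its summits in the 2 replicates lay 126 bp apart. RpL39, the smallest tunnel protein, ranked 1459 in replicate 1 and 1537 in replicate 2. RpL4, RpL31 and RpL35 were entered in replicate 2 only, at ranks 633, 758 and 3956. RpL35 had the weakest optimal summit of all RpL genes, with signal 131 and rank 3536. RpL26 was the tunnel gene without an optimal summit.

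The genes RpL3, RpL8 and RpL10, whose proteins reach toward the peptidyl transferase site, all had a summit, against 79.6% of RpL genes. RpL8 ranked 662 in replicate 1, 466 in replicate 2 and 611 in the optimal list. RpL10, whose yeast counterpart is added late in the maturation of the subunit, ranked 1481 in replicate 1, 1845 in replicate 2 and 1575 in the optimal list. RpL3 had no replicate 1 entry and ranked 1989 in replicate 2 and 2718 in the optimal list.

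RpL24, RpL30 and RpL41, whose proteins form bridges to the small subunit, each had a summit in both replicates. RpL41, which encodes one of the shortest known proteins, ranked 356 in replicate 1, 141 in replicate 2 and 231 in the optimal list, and both replicates placed its summit at -86 bp. RpL24 ranked 777 in replicate 1, 301 in replicate 2 and 520 in the optimal list. RpL30 ranked 636 in replicate 1, 401 in replicate 2 and 534 in the optimal list, with the optimal summit 4 bp downstream of the TSS. At all 3 bridge genes, as at most RpL genes listed in both replicates, replicate 2 gave the higher rank.

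The remaining 31 genes, which hold no role among those lists, include most of the strongest summits, and 23 of them had one. RpL7 (FBgn0005593, summit at 2L position 10201033 in a peak from 10200863 to 10201193) led all RpL genes, with rank 97 and signal 665 in replicate 1, rank 47 and signal 677 in replicate 2 and rank 64 and signal 1355 in the optimal list. RpL32 (FBgn0002626, summit at 3R position 30046238 in a peak from 30046061 to 30046507), widely used as a reference gene in fly expression assays, ranked 148 in replicate 1, 107 in replicate 2 and 126 in the optimal list. RpL34b ranked 173 in replicate 1 and 150 in replicate 2. RpL14 ranked 231 in replicate 1 and 123 in replicate 2, and RpL22 ranked 523 in replicate 1 and 314 in replicate 2. These 5 genes were thus among the strong peaks of both libraries. RpL28, RpL13A and RpL13 ranked 182, 252 and 586 in the optimal list and 155, 185 and 330 in replicate 2, and none of them had an entry within 500 bp in replicate 1. A further 14 genes of this group with a summit ranked between 623 (RpL34a) and 2898 (RpLP0-like) in the optimal list.

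The replicates differed in which RpL promoters they listed, and not by much in the order of those that both listed. All 43 RpL genes with an optimal summit were among the strongest peaks of replicate 2, and 29 were among those of replicate 1. The other 14 had no entry within 500 bp even in the full replicate 1 list (32.6%, against 469 of 1821 genes, or 25.8%, for all genes with an optimal promoter summit), whereas 0 of the 43 RpL genes and 9 of all 1821 lacked one in the full replicate 2 list. The 14 are RpL28, RpL13A, RpL13, RpL27, RpL11, RpL36, RpL4, RpL31, RpL35A, RpL9, RpLP2, RpL3, RpLP0-like and RpL35. Their nearest replicate 1 entry lay 1271 to 62633 bp from a TSS, with a median of 10006.5 bp, against 0 to 175 bp and a median of 56 bp for the 29 others. The 14 were therefore not near misses of the window.

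The 14 genes without a replicate 1 entry were not confined to weak peaks. Their optimal ranks ran from 182 to 3536 with a median of 980.5, against 64 to 2359 with a median of 748 for the 29 with an entry. Their ranks in replicate 2 had a median of 710, against 496 for the 29 others. The GC content in the 101 bp around the optimal summit was 46.5% ± 8.27 at these 14 and 43.1% ± 9.26 at the 29 others (SD over summits). The lists do not show why an entry is absent, and the part of depth or GC content in it was not tested.

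Where both replicates listed an RpL promoter, they placed it alike. Over the 29 pairs of summits the distance between replicates had a median of 7 bp, and 22 pairs lay within 20 bp of each other. RpL41 had the same summit base in both, and RpL10Ab had the most distant pair, 204 bp apart. At RpL10Ab replicate 1 also had a weaker summit 80 bp upstream of the TSS, nearer to the replicate 2 summit 108 bp upstream. The ranks of the 29 genes in the 2 replicates had a Spearman rho of 0.944, which is a description over promoters that share 2 libraries and 1 control file.

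RpL summits lay close to the start of transcription. The median offset was -44 bp (quartiles -68.5 and -23.5), against -158 bp (quartiles -250 and -85) over all genes with a promoter summit, where a negative offset means upstream. Of the 43, 40 (93.0%) lay within 100 bp of a TSS, against 458 of 1821 genes (25.2%). RpS summits lay about as close, with 21 of 24 (87.5%) within 100 bp. In replicate 1 this share was 86.7% for RpL and 100% for RpS genes, and in replicate 2 it was 91.3% for RpL and 89.7% for RpS genes. Upstream summits numbered 37 (86.0%), against 90.2% of all such genes, and downstream ones 6. The 6 were at RpL7, RpL30, RpL36, RpL17, RpL37A and RpL27A, none more than 29 bp into the gene. The median was -54.5 bp for RpL genes and -165 bp for all genes in replicate 1, and -41 bp for RpL genes and -138 bp for all genes in replicate 2.

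**Figure D3:**
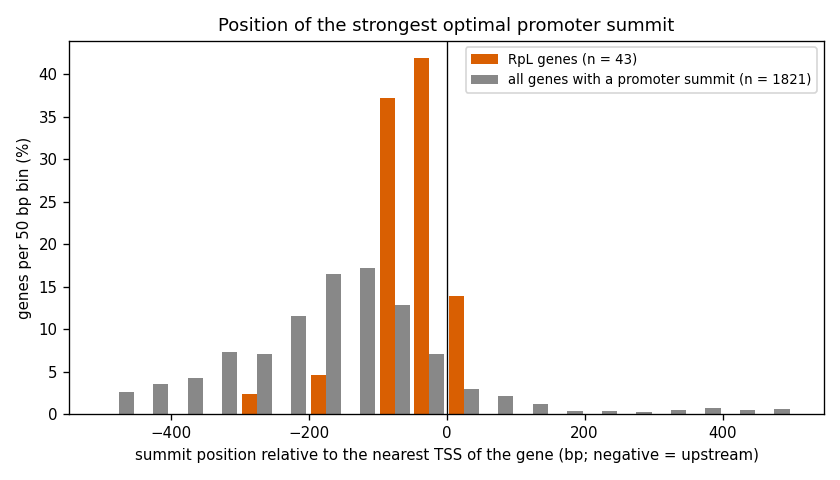
Position of the strongest optimal promoter summit relative to the nearest TSS of its gene, in bp, as the percentage of genes per bin of 50 bp, for 43 RpL genes and for all 1821 genes with a promoter summit. The RpL summits crowd within 100 bp of the TSS (93.0%), and the summits of all genes spread farther upstream (25.2% this close). RpS genes, not drawn apart, had 87.5% this close.

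Beyond 100 bp lay, among 3 RpL genes, RpL10Ab at -299 bp and RpLP2 at -200 bp. RpL10Ab had a second optimal summit 66 bp from a TSS, and RpL32, RpL28, RpL7A and RpL27A likewise had 2 optimal summits each. Taking the nearest summit of each gene, the RpL genes just inside the limit of 500 bp included RpLP2 at 200 bp and RpL23A at 90 bp. Those just outside were RpL6 at 3494 bp, RpL40 at 4625 bp and RpL22-like at 7378 bp. No RpL gene lay between 200 and 3494 bp, so the count of 43 did not hinge on the width of the window.

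Many RpL summits also lay within 500 bp of a TSS of another protein-coding gene, and such a summit cannot be given to 1 gene from its position. This was so for 21 of the 43 (48.8%), against 979 of 1821 genes (53.8%) with a promoter summit. The RpL count depended on the definition, with 13 of 30 in replicate 1 alone, 22 of 46 in replicate 2 alone, 12 of 43 with a window of 250 bp and 9 of 43 with a peak interval that covers the other TSS. At all 21 the nearest partner was transcribed from the opposite strand. The strand was not counted over all genes with a shared summit, so this does not set the RpL genes apart. The summit was nearer to the partner at 3 of the 21. Among these, it lay 299 bp from RpL10Ab and 277 bp from CG11597 and CG5946, and 44 bp from RpLP0-like and 43 bp from the adaptor gene 14-3-3zeta.

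At the other 18 shared promoters the RpL gene was the nearer one. RpL7 shared its summit with Ripalpha, 59 bp away, a gene named for the interaction of its protein with the single-strand DNA-binding protein RPA. RpL13 shared its summit with Dref, 75 bp away, the gene of the factor that binds the DRE, and RpL14 shared one with Nelf-E, 85 bp away, which encodes an RNA-binding subunit of a complex that pauses RNA polymerase II. Further partners within 250 bp were NaCP60E for RpL41 (96 bp), CG3776 for RpL19 (109 bp), Trmt61 for RpL34a (171 bp), CG8132 for RpL34b (201 bp), Neos for RpL18 (220 bp), CG6693 for RpL3 (225 bp) and CG7943 for RpL32 (232 bp). Partners at greater distance were CG13690 for RpLP1, Dph4 and Spec2 for RpL13A, CG7130 for RpLP0, Mybbp1A for RpL36, the initiation factor gene eIF1 for RpL28, BCAS2 for RpL4, CG12929 for RpL31 and CG13531 for RpL23, at 268 to 479 bp. Signal had a median of 518 at the 21 shared and 340 at the 22 unshared RpL summits, and the offset a median of -54 bp at shared and -39.5 bp at unshared ones.

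The summit between RpL13 and Dref is printed for its position. It lay within 500 bp of a TSS of a ribosomal protein gene and of the gene of a factor of ribosomal protein promoters. The window runs 50 bases to either side of the summit, on the plus strand of dm6, with no letters in capitals.
RpL13 and Dref (chr2L:9967254-9967354, plus strand, summit 9 bp upstream of RpL13): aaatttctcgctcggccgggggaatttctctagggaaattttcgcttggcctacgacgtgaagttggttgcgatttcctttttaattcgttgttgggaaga
It ranked 586 in the optimal list and 330 in replicate 2, had no replicate 1 entry within 500 bp, and held 45.5% GC and no DRE.

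No optimal summit was found at 11 RpL genes, and these fell into different kinds. RpL26, RpL29 and RpL36A had one among the strongest peaks of replicate 2 only, at ranks 1141, 3115 and 3072, with no replicate 1 entry within 500 bp. RpL21 had one among the strongest of replicate 1, at rank 3661, and a weaker one in replicate 2, at rank 11285. RpL6, and RpL40, which encodes a ribosomal protein fused to ubiquitin, were entered in the full replicate 2 list at ranks 8714 and 12950. RpL10Aa was entered in replicate 1 alone, at rank 28482 and 412 bp downstream of the TSS. RpL22-like, RpL24-like, RpL37-2 and RpL7-like had no entry within 500 bp in either replicate. Counting a summit in the optimal list or among the strongest peaks of either replicate, 47 of 54 RpL genes had one, against 19.3% of all genes, and 7 had none.

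The promoters of RpL26 and RpL36A are shown because each had a summit in 1 replicate only and holds a DRE; capitals mark the DRE, in the same frame as above. For RpL26 the printed TSS is not the one nearest to the replicate 2 summit, which lies outside the printed stretch.
RpL26 (chr3L:18898775-18898905, plus strand): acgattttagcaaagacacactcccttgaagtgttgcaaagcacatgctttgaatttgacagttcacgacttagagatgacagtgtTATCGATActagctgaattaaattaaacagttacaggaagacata
RpL36A (chr2L:8042879-8043009, minus strand): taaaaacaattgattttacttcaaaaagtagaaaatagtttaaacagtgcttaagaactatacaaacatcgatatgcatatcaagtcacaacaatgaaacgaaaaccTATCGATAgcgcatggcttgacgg
Neither holds CTTT at the printed TSS, while RpL29, also among the strongest of replicate 2 only, holds it at a TSS. Over all RpL genes, 5 of the 11 without an optimal summit and 28 of the 43 with one hold CTTT at a TSS.

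Paralogous RpL genes differed in dmrt93B peaks. Among 7 pairs of RpL paralogues, 5 had a promoter summit at 1 copy only, and 2 had one at both copies. Of the 7 copies listed second, 5 had no summit, and 13.1% of all genes had one. The 5 pairs with 1 peak are named here with the copy that had the peak in first place. They were RpL7 and RpL7-like, RpL10Ab and RpL10Aa, RpL22 and RpL22-like, RpL24 and RpL24-like, and RpL37-1 and RpL37-2. The yeast relatives of RpL7-like and RpL24-like are assembly factors of the large subunit and not parts of the mature ribosome, and RpL22-like is a tissue-restricted copy of RpL22 in flies. RpL22 had rank 418 in the optimal list and RpL37-1 had rank 1370, while the nearest optimal summit of RpL22-like lay 7378 bp and that of RpL37-2 36055 bp away. Leaving out the copy listed second in each of the 7 pairs, 41 of 47 RpL genes (87.2%) had a promoter summit, against 13.1% of all genes. The pairs were listed with earlier results of these data known, so this share is not independent of the peaks.

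In both other pairs each copy had a peak. RpL34b ranked 155 and RpL34a ranked 623 in the optimal list, in replicate 1 they ranked 173 and 828, and in replicate 2 they ranked 150 and 460. RpL34b was thus the stronger copy in both libraries. RpLP0 ranked 277 and RpLP0-like, whose yeast relative is an assembly factor as well, ranked 2898 in the optimal list; RpLP0-like had no replicate 1 entry and shares its summit with 14-3-3zeta.

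Sequences of the paralogues that can be shown are set side by side, since they show how far the start regions of the copies differ. Frame and capitals are as above, and offsets are from the printed TSS, which for RpL7 and RpL24 is not the TSS nearest to the summit.
RpL7 (chr2L:10201000-10201130, plus strand, summit 67 bp upstream): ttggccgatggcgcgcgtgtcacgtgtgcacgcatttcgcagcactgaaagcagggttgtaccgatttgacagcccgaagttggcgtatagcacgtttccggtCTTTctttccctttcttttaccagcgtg
RpL7-like (chr2L:12056248-12056378, plus strand, no optimal summit): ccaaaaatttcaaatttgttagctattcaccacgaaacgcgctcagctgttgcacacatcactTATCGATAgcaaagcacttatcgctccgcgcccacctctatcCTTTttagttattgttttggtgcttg
RpL24 (chr2L:13395062-13395192, minus strand, summit 64 bp upstream): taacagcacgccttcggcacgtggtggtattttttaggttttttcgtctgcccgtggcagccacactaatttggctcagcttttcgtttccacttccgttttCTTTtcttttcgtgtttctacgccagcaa
RpL24-like (chr3R:11431552-11431682, minus strand, no optimal summit): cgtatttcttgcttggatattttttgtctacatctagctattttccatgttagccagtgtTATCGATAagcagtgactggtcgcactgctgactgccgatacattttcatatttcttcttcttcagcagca
RpL10Ab (chr3L:11822751-11822881, plus strand, summit 299 bp upstream, outside the printed stretch): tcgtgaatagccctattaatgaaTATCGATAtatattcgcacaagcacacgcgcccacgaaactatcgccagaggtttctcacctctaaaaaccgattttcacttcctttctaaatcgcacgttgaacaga
RpL10Aa (chr3R:15037266-15037396, plus strand, no optimal summit): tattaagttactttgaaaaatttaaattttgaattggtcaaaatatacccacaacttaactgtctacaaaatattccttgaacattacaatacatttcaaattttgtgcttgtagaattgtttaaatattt
RpL34b (chr3R:9401196-9401326, minus strand, summit 68 bp upstream): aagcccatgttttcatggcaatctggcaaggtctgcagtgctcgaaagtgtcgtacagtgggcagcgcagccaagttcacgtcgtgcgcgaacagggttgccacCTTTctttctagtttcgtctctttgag
RpL34a (chr3R:26059237-26059367, minus strand, summit 58 bp upstream): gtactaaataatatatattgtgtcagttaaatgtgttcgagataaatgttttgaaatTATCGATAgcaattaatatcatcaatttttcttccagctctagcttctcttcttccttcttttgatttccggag
RpL7 and RpL24 hold CTTT at the printed TSS and no DRE. RpL7-like holds both and RpL24-like a DRE alone, and neither had a peak. RpL10Ab holds a DRE and no CTTT at the TSS, and RpL10Aa, without a peak, holds neither. RpL34b holds CTTT and no DRE, RpL34a holds a DRE and no CTTT at the TSS, and both had a peak.

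RpL summits lay in sequence richer in GC than other promoter summits. In windows of 101 bp around the summit the GC content was 44.2% ± 9.0 at the 43 RpL summits and 33.2% ± 9.57 at all 1501 distinct promoter summits, RpL ones included (SD over summits). At least 40% GC was reached by 32 of the 43 (74.4%) and by 328 of the 1501 (21.9%). In replicate 1 the mean was 41.2% for RpL and 33.1% for all promoter summits, and in replicate 2 it was 44.7% for RpL and 34.8% for all. Averaged over replicates this is 42.9% ± 2.43 for RpL and 33.9% ± 1.23 for all promoter summits (SD, n = 2 each). Since the genome sequence is fixed, this SD reflects only which summits each list held. The RpL summits numbered 30 in replicate 1 and 46 in replicate 2. Among RpL genes the richest summit was that of RpL22, with 61.4%, and the poorest that of RpLP2, with 21.8%.

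The promoters as a whole did not show this gap. From 250 bp upstream to 50 bp downstream of the TSS, GC content was 37.0% ± 5.29 over the 54 RpL genes and 39.1% ± 7.73 over all 13945 genes (SD over genes). It was 37.7% at RpL genes with a summit and 33.9% at those without. Distance from the TSS moved with GC content as well. In a comparison chosen after these values were seen, the 40 RpL summits within 100 bp of a TSS had 45.6% ± 7.75 and the 426 other summits this close had 37.2% ± 10.1.

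**Figure D4:**
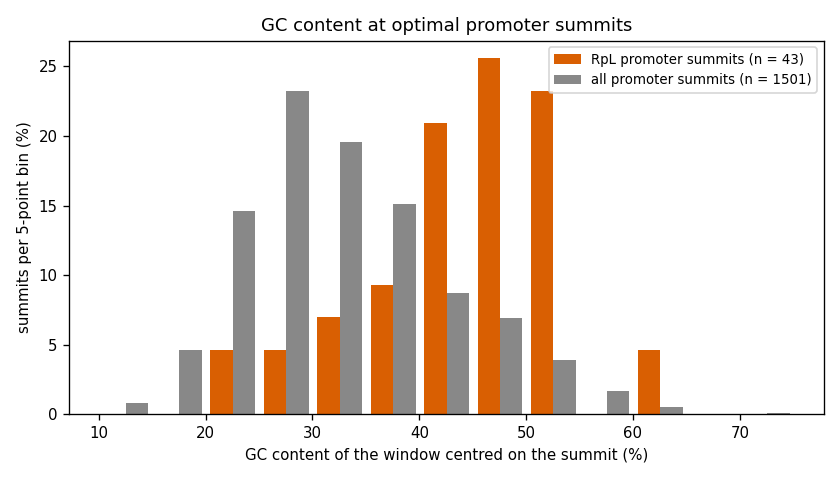
GC content, in percent, of the 101 bp window centred on the summit, as the percentage of summits per bin of 5 points, for 43 RpL promoter summits and for all 1501 optimal promoter summits. The RpL summits peak between 40% and 55%, and all promoter summits peak between 25% and 35%.

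The DRE, TATCGATA, was frequent at RpL summits. Searched on both strands in the 101 bp window, it was found at 9 of 43 RpL summits (20.9%, interval 11.4 to 35.2) and at 39 of 1501 promoter summits (2.60%, interval 1.91 to 3.53). RpS summits held it at a like share, 5 of 24 (20.8%, interval 9.24 to 40.5). The shares were 20% for RpL and 2.23% for all promoter summits in replicate 1, and 21.7% for RpL and 3.72% for all in replicate 2. Together, RpL and RpS summits account for 14 of the 39 (35.9%). Within 100 bp of a TSS, a comparison chosen after these values were seen, 8 of 40 RpL summits (20%) and 25 of 426 others (5.87%) held one. Among the 9 RpL summits were those of RpL28, RpL41, RpL19, RpL34a, RpL27, RpL36, RpL37-1 and RpL39. The centre of the DRE lay on the summit base at RpL39, 1 bp from it at RpL41 and RpL37-1, and at most 34 bp from it at the others.

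RpL27 and RpL37-1 are printed, beside RpL34a above, because their DRE lies 9 bp and 1 bp from the summit; capitals mark the DRE and, in RpL27, CTTT at the TSS.
RpL27 (chr3R:25685021-25685151, minus strand, summit 46 bp upstream): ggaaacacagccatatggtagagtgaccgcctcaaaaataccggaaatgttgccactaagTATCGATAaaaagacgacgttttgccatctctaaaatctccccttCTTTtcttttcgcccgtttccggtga
RpL37-1 (chrX:15139337-15139467, minus strand, summit 52 bp upstream): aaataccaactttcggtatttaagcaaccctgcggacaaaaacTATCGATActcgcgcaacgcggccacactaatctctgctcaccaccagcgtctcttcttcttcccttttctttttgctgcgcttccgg
In all 3 the DRE stands alone, with no second copy in the printed stretch.

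RpL genes with a DRE in the promoter did not have a dmrt93B peak more often than those without. From 250 bp upstream to 50 bp downstream of the TSS, 15 of 54 RpL promoters (27.8%) and 1306 of 13945 promoters (9.37%) held one. Of the 15 RpL genes with a DRE 10 had a promoter summit, and of the 39 without one 33 had. The 5 RpL genes with a DRE and no optimal summit were RpL24-like, RpL26, RpL36A, RpL6 and RpL7-like. Over all genes, 223 of the 1306 with a DRE (17.1%) had a promoter summit, against 13.1% of all genes.

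Other motifs were searched in the same windows on both strands. The core of the M1BP site, GGTCACACT (Motif 1), was found at 5 of 43 RpL summits (11.6%, interval 5.07 to 24.5) and at 14 of 1501 promoter summits (0.933%). CACGTG, the E-box bound by Myc and Max, was found at 3 RpL summits (6.98%, interval 2.40 to 18.6) and at 0.933% of promoter summits. The TATA box letters TATAAA were found at 5 RpL summits (11.6%, interval 5.07 to 24.5) and at 358 promoter summits (23.9%), and the A/T-only word TTAAAA at 5 RpL summits (11.6%) and at 549 promoter summits (36.6%). At RpS summits the shares were 12.5% for TATAAA, 8.33% for TTAAAA and 4.17% for Motif 1, with 0 of 24 for CACGTG. The words can share letters within a window, and each was counted on its own. The GC content of the windows, given above, differs in the same direction, and its part in these shares was not tested. The lower shares of the A/T words were not seen over the promoters. From 250 bp upstream to 50 bp downstream of the TSS, TATAAA was in 44.4% of RpL and 45.9% of all promoters. TTAAAA was there in 64.8% of RpL and 53.4% of all promoters. Motif 1 was there in 6 of 54 RpL promoters (11.1%, interval 5.19 to 22.2) and in 6.05% of all promoters. Its share was 7.52% at the promoters of all genes with a summit, so the gap at summits was mostly absent over the promoters. CACGTG was in 14.8% of RpL promoters (interval 7.70 to 26.6) and 4.24% of all promoters.

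Letters known from DM-domain sites were found at few summits, RpL or other. ACAATGT was found at 2 of 43 RpL summits (4.65%, interval 1.28 to 15.5) and at 22 of 1501 promoter summits (1.47%). TGTATCA was found at 0 RpL summits (interval 0 to 8.20) and at 18 promoter summits (1.20%). From 250 bp upstream to 50 bp downstream of the TSS, ACAATGT was in 5 of 54 RpL promoters (9.26%, interval 4.02 to 19.9). The share over all promoters was 4.63%. TGTATCA was there in 0 RpL promoters and 2.91% of all promoters. GAGAGA, the site of the GAGA factor, was found at 0 RpL summits (interval 0 to 8.20), 0 RpS summits and 34 promoter summits (2.27%). Absence of these letters says only that they are not in these windows. Both words chosen after the RpL sequences were seen were more frequent there, GGTATTTT (close to the core promoter Motif 6) at 6 RpL summits (14%) and 27 promoter summits (1.80%), and AACAGCAC at 4 RpL summits (9.30%) and 14 promoter summits (0.933%); having been picked from these sequences, they carry no weight as evidence.

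**Figure D5:**
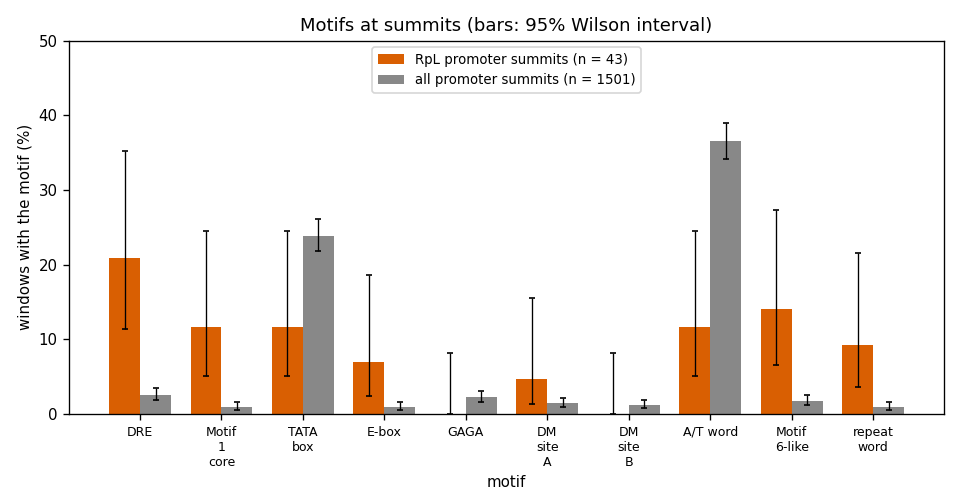
Share of 101 bp summit windows that hold each motif, in percent, with 95% Wilson intervals, for 43 RpL promoter summits and for all 1501 promoter summits. The DRE stands at 20.9% of RpL and 2.60% of all windows, while TATAAA and the A/T word (TTAAAA) stand lower at RpL summits. Motif 6-like (GGTATTTT) and the repeat word (AACAGCAC) were chosen after the RpL sequences were seen.

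The TCT element was described from the genome and annotation alone. CTTT started within 5 bp of an annotated TSS at 33 of 54 RpL genes (61.1%), 25 of 38 RpS genes (65.8%), 2 of 47 mitochondrial large-subunit genes (4.26%) and 1125 of all 13945 genes (8.07%). Counted per TSS, this was 37 of 92 RpL start sites (40.2%) and 1176 of 19607 start sites (6%). Of the RpL genes with CTTT, 28 of 33 had a promoter summit, and of those without, 15 of 21 had one. Among the 1067 genes with CTTT that are not cytosolic ribosomal protein genes, 199 (18.7%) had a promoter summit, against 13.1% of all genes.

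The RpL genes with a summit were spread over the chromosome arms. They numbered 9 of 13 on 2L, 11 of 14 on 2R, 9 of 10 on 3L, 8 of 11 on 3R and 6 of 6 on X. Each of these arms held RpL genes with and without an optimal summit, except X. The share of all genes with a promoter summit was not computed per arm, so these counts do not set any arm apart.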

How the data were processed

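Per the labels, dmrt93B ChIP-seq libraries were made from sonicated chromatin of whole larvae, with 2 biological replicates in 1 group, and mapped to dm6. The authors deposited 1 peak list per replicate, 1 pooled list and an optimal list filtered by the irreproducible discovery rate (IDR); the deposited text names the same control file for both replicates. The sources used here do not give the aligner, peak caller, IDR threshold or depth, and control reads were not analysed here. Signal is the deposited score of each peak, used only within a list. The deposited −log10 q value was at its ceiling of 3.91 for 4044 of 4159 optimal peaks and all 43 RpL summits, so it was not used. The optimal list equals the 4159 pooled peaks with the highest signal; its peaks cover 4129 intervals, so peaks were counted by summit (peak start plus the deposited summit distance).

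Summits were joined to the TSSs of Ensembl release 115 and to the NCBI Release 6 genome sequence, both in dm6 coordinates, with pandas 2.3.3, numpy 2.4.6 and scipy 1.17.1 under Python 3.11.15; plots used matplotlib 3.10.9. If a gene had several promoter summits, the strongest was used, and its offset was taken to the nearest TSS. The comparisons are counts, medians and shares beside those of all protein-coding genes. The alternatives changed the replicate, the TSS window and definition, the peak threshold, the matching distance and the sequence window. The joins were tested on simulated data.

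The RpL genes, the 6 other gene lists, the paralogue pairs, the roles and the first 8 motifs were chosen with earlier results of these data known; 2 more motifs were chosen after the RpL sequences were seen. The naming rule allows any RpL gene and covers in full the 15 with the strongest summit, all without one, the paralogues, all with a shared promoter, the 3 nearest on either side of the 500 bp limit, and the 3 strongest genes of each other list. Protein sequences were not used here, and sequence from arm 2R was not printed. Of the genes this rule covers, 1 RpL gene is counted in the totals and is not reported individually here.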

Additional observations from a re-analysis of the deposited data

How the results depend on the processing

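Of 62 alternative values of 11 results, 52 stayed within the margin set for them and 10 moved. Only the median offset and the RpL minus RpS difference could change sign, and neither did. The margin was 1.5 times the reported value for counts, so that falls of the RpL count to 30 and 29 lie within it. For the summit distance between replicates it was 1 SD over the 29 pairs (44.7 bp), which is wide beside the median of 7 bp. For other values it was 1 SD between replicates. The same replicate values also serve as alternatives, so these labels describe stability and do not test it. Leaving out either replicate gave 30 to 46 RpL genes with a promoter summit, a median offset of -54.5 to -41 bp, a median signal percentile of 77.9 to 83.0, 13 to 22 shared promoters, a GC content of 41.2% to 44.7%, 6 to 10 summits with a DRE, 5 to 6 paralogue pairs with 1 bound copy and an RpL minus RpS difference of 8.87 to 16.1 percentage points. The 30 RpL genes come from replicate 1 and the 46 from replicate 2. With a TSS window of 250 bp 12 RpL promoters were shared, and with a peak interval that covers the TSS 9 were, since fewer partner TSSs can qualify. In the optimal list restricted to its peaks above the median signal 38 RpL genes had a summit, against 8.47% of all genes, at a median percentile of 62.8 within that shorter list. With only those optimal peaks entered in both replicate lists, 29 RpL genes had a summit, against 9.54% of all genes, and the RpL minus RpS difference was 6.34 points; the cause was not tested. Windows of 100 bp to either side of the summit gave 41.5% GC, and CTTT within 10 bp of a TSS was found at 47 RpL genes (87.0%), against 14.9% of all genes, compared with 33 RpL genes and 8.07% of all genes within 5 bp. No paired analysis was possible because the replicates form 1 group. Depth is unknown, so an absent entry cannot be read as absence of binding.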
